A study of Rattus norvegicus with 28 samples.

Results

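The comparison described here is paired odor-shock training against unpaired training in 8-day rat pups given saline. It covers 14 of the 28 arrays of the study, 7 of paired and 7 of unpaired pups, each array holding RNA of the amygdala, the forebrain region that links sensory cues with threat and reward. The arrays were chosen by their labels alone, and all 15866 probe sets found on both array designs of the study were tested. In a session of 45 min that followed 10 min of adaptation, pups received 11 presentations of a peppermint odor of 30 s and a tail shock of 1 s at 0.5 mA, with 4 min between trials. In paired pups the shock came at the end of the odor, and in unpaired pups it came 2 min after the odor, so both groups had the same number of odors and shocks and differed in their timing. All 14 arrays come from pups that received saline and were killed directly after training. The other arrays of the study are of 8-day pups given corticosterone (3 paired, 3 unpaired) and of untreated 12-day pups (4 paired, 4 unpaired). The labels give no strain and do not say how many pups went into 1 sample, nor whether the replicates of a group were separate litters, so p-values measure the spread between these samples, which may in part be technical.

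Young rat pups that receive an odor together with a mild shock come to approach the odor, whereas older pups learn to avoid it, and the amygdala and the stress hormone corticosterone are known to take part in that transition. The study, by its title, was concerned with dopamine in this region. Dopamine is made from tyrosine by tyrosine hydroxylase (Th) and DOPA decarboxylase (Ddc), loaded into vesicles by the vesicular monoamine transporter (Slc18a2, also called VMAT2) and taken up again by the dopamine transporter (Slc6a3). It acts through the receptors D1 (Drd1), which raises cyclic AMP, and D2 (Drd2), which lowers it. The cell bodies that make most forebrain dopamine lie in the midbrain and send their axons to the striatum, the amygdala and the cortex.

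Promoters of 4 genes with lower signals in paired pups are shown, those of the dopamine genes Th, Slc18a2 and Slc6a3 and, because it also holds the element marked, that of Vamp1. Each line gives the 150 bases before the annotated start, from RefSeq on the rat build GRCr8, 5′ to 3′ on the gene's strand. Th lies on the minus strand of chromosome 1 (chr1:207508219-207508368), Slc18a2 on the plus strand of the same chromosome (chr1:268399871-268400020), Vamp1, which encodes the vesicle fusion protein synaptobrevin 1, on the plus strand of chromosome 4 (chr4:159698744-159698893), and Slc6a3 on the minus strand of chromosome 1 (chr1:31578963-31579112). Capitals mark the cyclic AMP response element TGACGTCA, which is its own reverse complement and so was searched on both strands at once.
Th: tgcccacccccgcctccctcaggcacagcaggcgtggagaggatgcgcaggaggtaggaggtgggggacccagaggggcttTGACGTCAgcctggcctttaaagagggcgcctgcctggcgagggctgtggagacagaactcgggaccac
Slc18a2: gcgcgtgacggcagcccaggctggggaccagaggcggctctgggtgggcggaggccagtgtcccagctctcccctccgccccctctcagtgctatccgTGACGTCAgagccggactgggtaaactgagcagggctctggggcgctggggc
Vamp1: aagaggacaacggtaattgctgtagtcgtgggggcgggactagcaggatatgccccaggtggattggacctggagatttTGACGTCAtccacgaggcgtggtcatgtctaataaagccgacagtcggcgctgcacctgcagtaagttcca
Slc6a3: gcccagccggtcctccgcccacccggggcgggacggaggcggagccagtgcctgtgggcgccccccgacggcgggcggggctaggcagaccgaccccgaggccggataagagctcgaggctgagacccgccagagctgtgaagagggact

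The element began 69 bases before the start of Th, 52 before that of Slc18a2 and 71 before that of Vamp1, and the 8 letters were not in the window of Slc6a3. Over windows from 250 bases before to 50 after the start, 612 of 33469 rat promoters (1.83%) held the element. Among the genes called by the rank product below, 23 had a promoter in the table. The element was in 4 of the 24 promoters of genes called lower (Th, Slc18a2, Vamp1 and Clstn2) and in 0 of the 6 of genes called higher. Ddc, the other dopamine gene called lower, had 3 promoters in the table and none held it. The element was chosen with the called genes in view, so these counts are a description.

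Values are deposited log2 expression, so a difference of 1 is a 2-fold change, and every difference is paired minus unpaired. The arrays fell into 3 sets of replicates, 1 and 2, 3 and 4 (on the larger array design), and 5 to 7, each with equal numbers of paired and unpaired arrays. Set membership accounted for 67.6% of the sum of squares over all probe sets and training for 2.70%, and comparisons were therefore made within sets. Array medians lay close together, but 3 arrays stood apart from the others of their set. Paired array 1 was at least 2 log2 units above the median of the other arrays of its set at 118 probe sets. Paired array 2 was as far below the median of the others at 51, and unpaired array 5 as far below at 22 and above at 10. No other array reached 13 in either direction. Of the markers of forebrain tissue, Snap25 (a neuronal vesicle fusion protein) averaged 12.70 ± 0.28 in paired and 12.72 ± 0.24 in unpaired pups, Gad1 (GABA synthesis) 11.97 ± 0.19 and 11.82 ± 0.29, and Slc17a7 (a cortical and amygdalar glutamate transporter) 9.23 ± 1.07 and 9.37 ± 0.89 (SD, n = 7 each). Crh, a peptide of central amygdala neurons, was low, at 3.26 ± 1.04 and 2.87 ± 0.19, with the highest value of 5.61 in paired array 2.

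No probe set passed limma with the array sets as a block (0 of 15866 at a Benjamini-Hochberg adjusted p under 0.05, 0%; lowest adjusted p 0.663). At an unadjusted limma p under 0.05 there were 1088 probe sets (6.86%), 821 higher (5.17%) and 267 lower (1.68%) in paired pups, and among the 8983 probe sets of mean log2 5 or more there were 428 (4.76%), 207 higher (2.3%) and 221 lower (2.46%). The excess of higher values was in dim probe sets. Below a mean log2 of 5, 74.4% of the differences were above 0, with a median of 0.019, and at 5 or more 51.0% were, with a median of 0.002. Centred on array medians the split was 191 higher and 336 lower, and after quantile normalization within sets it was 343 and 329. With the replicate number as a block, 2137 probe sets had an unadjusted p under 0.05 and 0 passed adjustment. An exact permutation test within sets gave 1483 probe sets (9.35%) at an unadjusted p under 0.05 and a lowest adjusted p of 0.48, its smallest possible raw p being 0.0028.

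The rank product, which the design text of the series names as its test, ranks differences across probe sets and takes no account of how widely a probe set varies. Run within sets, at a threshold of 0.05 on the share of calls estimated to be false (pfp), it called 75 of 15866 probe sets (0.473%), 30 higher (0.189%) and 45 lower (0.284%) in paired pups. Of these, 36 carried a gene symbol, for 11 genes called higher and 23 called lower. Called probe sets varied widely: their median spread within sets was 0.542 log2 units, against 0.146 for all probe sets. The pfp may therefore understate the share of false calls. In simulated arrays this test called more than 75 probe sets that had no simulated difference. Of the 75, 35 had an unadjusted limma p under 0.05 and 53 had the same sign in all 3 sets, against 30.8% of all probe sets with a positive and 8.53% with a negative sign in all 3. The calls were picked from the same within-set differences, so both counts follow in part from that choice and are no separate support. "Called" below means this test, and single-gene p-values are exact, two-sided and unadjusted (permutation within sets), and all are 0.48 or more after adjustment over all probe sets.

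**Figure D1:**
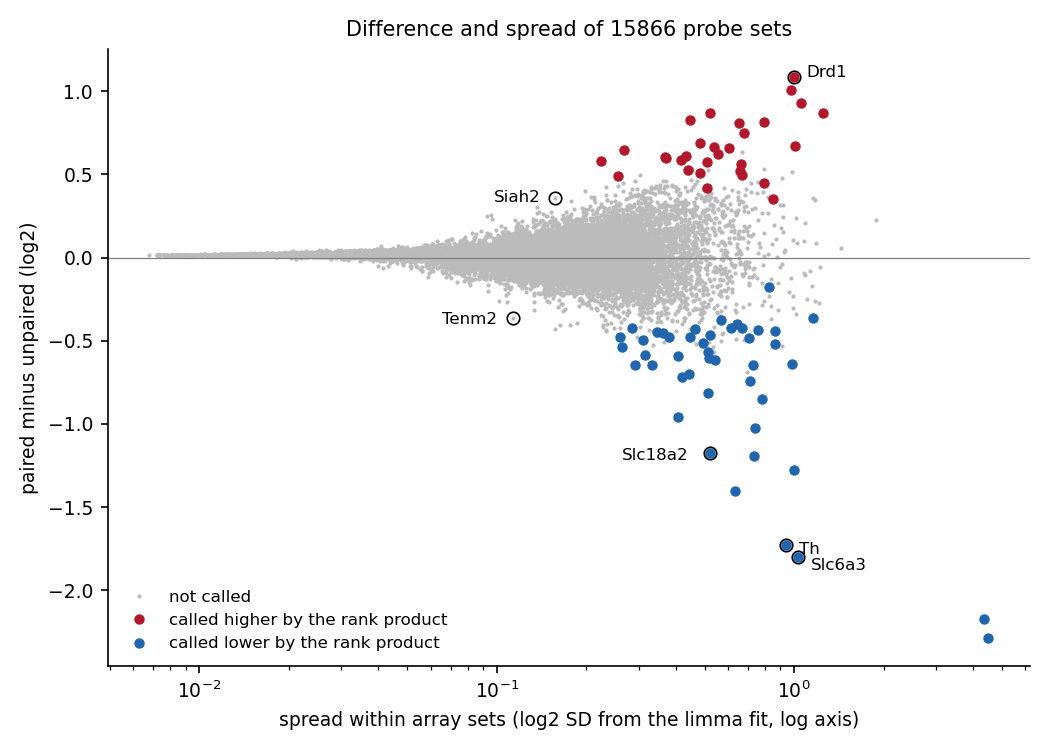
Paired minus unpaired difference (log2) of 15866 probe sets against their spread within array sets (log2 SD, log axis), with rank product calls in red (higher) and blue (lower) and 6 probe sets ringed and named. Th, Slc6a3 and Slc18a2 lie lowest among the named genes, and Tenm2 and Siah2 are uncalled genes with a small spread.

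The genes that handle dopamine were lower in paired pups. Th, Slc6a3, Slc18a2 and Ddc were all called lower, by 0.65 to 1.80 log2 units, whereas the receptors Drd1 and Drd2 were called higher. Of 15 genes on the dopamine list 14 were measured, 7 above and 7 below 0, with a median of -0.02 (all named genes: 61.8% above 0, median 0.02). None of the 14 passed limma after adjustment. The list median was 0.02 in replicates 1 and 2, 0.02 in replicates 3 and 4 and -0.05 in replicates 5 to 7.

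Th signal at the first of 2 probe sets was 7.33, 4.71, 4.83, 4.78, 5.37, 5.57 and 6.27 in paired arrays 1 to 7, and 7.54, 7.77, 4.80, 6.99, 9.20, 8.19 and 6.49 in unpaired arrays 1 to 7. All paired arrays but the first were at 6.27 or below, all unpaired arrays but the third were at 6.49 or above, and the groups did not overlap within 2 of the 3 sets. The difference was -1.73 (SE 0.50, a 3.32-fold lower signal; exact permutation p = 0.00556; limma adjusted p = 0.663; called whichever of the 14 arrays was left out). The second Th probe set, with higher signals of 8.14 ± 0.20 in paired and 8.28 ± 0.45 in unpaired pups (SD, n = 7 each), differed by -0.14 (SE 0.16, exact permutation p = 0.414), so the 2 probe sets disagree in size, and its difference was 0.02 and 0.06 in replicates 1 and 2 and 3 and 4.

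Slc6a3, the dopamine transporter, measured 5.27, 2.35, 2.52, 2.81, 3.60, 2.67 and 2.64 in paired arrays and 5.81, 6.63, 2.88, 3.65, 6.64, 5.47 and 3.38 in unpaired arrays. Each paired array except the first was near the low end of the scale, and within the sets of replicates 3 and 4 and of 1 and 2 every unpaired array was above every paired one. The difference was -1.80 (SE 0.55, exact permutation p = 0.00833), from -2.41 in replicates 1 and 2 and -0.60 in replicates 3 and 4 to -2.19 in replicates 5 to 7. A second probe set was dim, at 1.72 to 1.81 in paired arrays and 1.69 to 2.20 in unpaired arrays other than unpaired array 5 (3.05), and differed by -0.23 (exact permutation p = 0.4).

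Slc18a2, the vesicular transporter, was lower at both of its probe sets. At the first, 6 paired arrays lay between 4.91 and 5.01 and paired array 2 at 3.0, and unpaired arrays lay between 4.75 and 6.96. The difference was -1.18 (SE 0.28, exact permutation p = 0.00556). At the second, paired arrays read 5.95, 5.39, 4.95, 5.49, 5.73, 6.21 and 5.99 and unpaired arrays 6.0, 6.03, 6.04, 6.49, 6.40, 6.85 and 6.43, without overlap within any set (difference -0.65, SE 0.16, exact permutation p = 0.00278; exact permutation p = 0.0028, the smallest the design allows, adjusted p = 0.48).

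Ddc, the enzyme that completes dopamine and serotonin synthesis, measured 5.16, 5.17, 3.83, 3.57, 5.44, 5.35 and 5.45 in paired arrays and 4.93, 5.76, 4.80, 5.28, 7.16, 6.66 and 6.11 in unpaired arrays. The groups overlapped in replicates 1 and 2 (-0.18) and not in replicates 3 and 4 (-1.34) or 5 to 7 (-1.23). The difference over all sets was -0.96 (SE 0.22, exact permutation p = 0.00833).

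**Figure D2:**
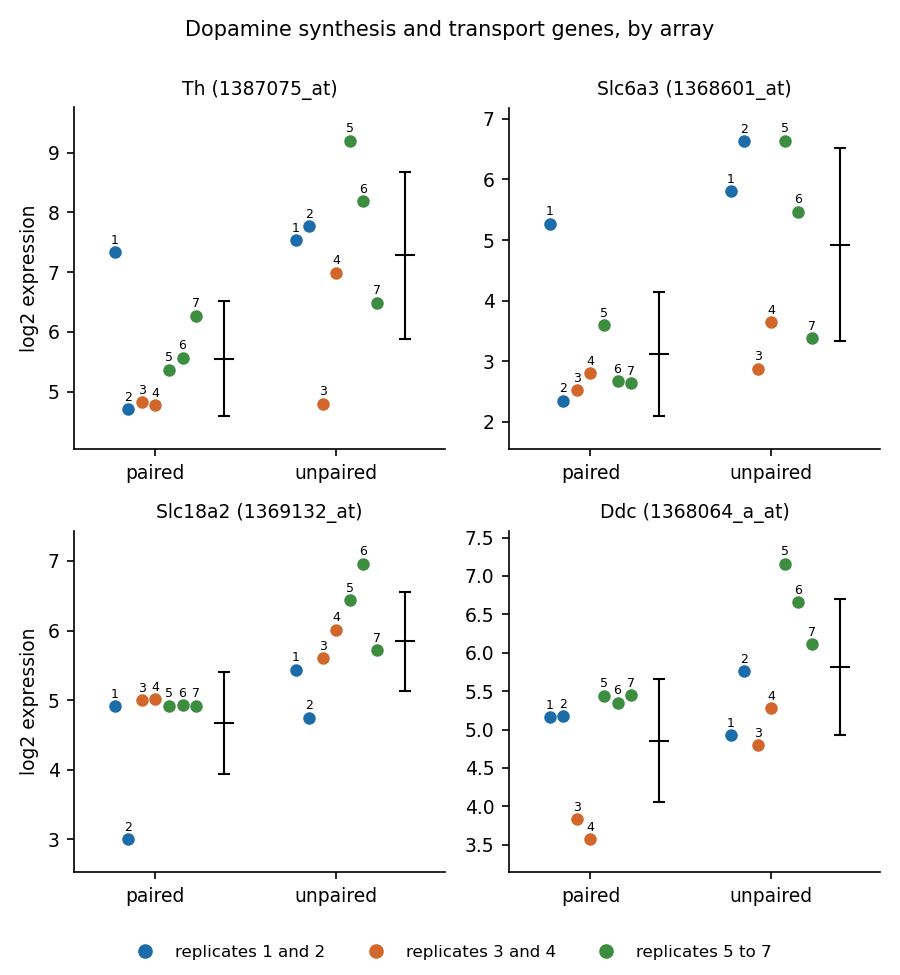
Log2 expression of Th, Slc6a3, Slc18a2 and Ddc in each of the 7 paired and 7 unpaired arrays, coloured by array set and numbered by replicate, with the group mean ± SD in black. Paired arrays are lower on average at all 4, and for Th and Slc6a3 paired array 1 sits among the unpaired arrays.

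The other enzymes of dopamine turnover differed less. Maob, which breaks dopamine down, differed by -0.12 (SE 0.13), and Caly (calcyon, a D1-associated protein) by -0.10 (SE 0.047, exact permutation p = 0.05). Dbh, which turns dopamine into noradrenaline, Gch1, which makes the cofactor of Th, and the receptors Drd3, Drd4 and Drd5 had mean signals of 2.16 to 2.61 and differences from 0.01 to 0.07.

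Further genes known from monoamine neurons were called lower. Aldh1a1, an aldehyde dehydrogenase of a subset of midbrain dopamine neurons, averaged 2.84 ± 1.22 in paired and 3.86 ± 1.58 in unpaired pups (SD, n = 7 each; -1.02, SE 0.40, exact permutation p = 0.025). Sncg, gamma-synuclein, averaged 4.31 ± 0.53 and 4.95 ± 0.95 (-0.64, SE 0.18, exact permutation p = 0.0139), and most of it came from replicates 5 to 7 (-1.16), where the groups did not overlap. Slc6a4, the serotonin transporter, averaged 4.52 ± 1.02 and 5.13 ± 0.76 (-0.61, SE 0.29, exact permutation p = 0.0667), was a call for 10 of the 14 arrays left out and differed by -0.38 without paired array 6. Of 2 probe sets of Ret, a receptor of neuron survival factors, the dimmer was called lower (-0.48, SE 0.14), for 4 of the 14 arrays left out, and the brighter one differed by -0.08 (SE 0.26).

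Of 15 genes listed as markers of midbrain dopamine neurons 11 were measured, 6 above and 5 below 0. The defining transcription factors Pitx3, Foxa1 and Foxa2 and the nicotinic subunits Chrna6 and Chrnb3 had mean signals of 1.83 to 2.45 in both groups and differences of at most 0.03, while Nr4a2 averaged 5.99 ± 1.08 in paired and 5.82 ± 0.84 in unpaired pups. The mean over the list ran from 4.31 to 4.70 in paired and from 4.33 to 4.97 in unpaired arrays. In bulk tissue, fewer cells of a type and less RNA per cell cannot be told apart, and the part of midbrain or other neighbouring tissue in these differences was not tested.

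The same 4 genes were set against the other conditions of the study. Array medians were 5.06 to 5.09 in corticosterone pups and 6.05 to 6.19 in saline pups. Upper quartiles were 7.38 to 7.43 in corticosterone pups and 8.68 to 8.87 in saline pups. Log2 effects in saline and corticosterone pups may therefore not be on the same scale, which was not tested. In corticosterone pups, paired minus unpaired was 0.92 (SE 0.82) for Th, 1.10 (SE 0.78) for Slc6a3, 0.31 (SE 0.40) for Slc18a2 and -0.29 (SE 0.32) for Ddc. In 12-day pups it was 0.38 (SE 0.71), 1.17 (SE 0.68), 0.18 (SE 0.34) and 0.24 (SE 0.28) for Th, Slc6a3, Slc18a2 and Ddc. The saline effect minus the corticosterone effect was -2.65 (SE 0.98) for Th and -2.90 (SE 0.94) for Slc6a3, and the saline effect minus the 12-day effect -2.11 (SE 0.89) and -2.97 (SE 0.85), none passing limma after adjustment (0.553 in the first contrast and 0.858 in the second).

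Genes of striatal-type projection neurons were higher in paired pups. Of 18 listed genes 13 were measured and 12 lay above 0, with a median of 0.40 (0.63 in replicates 1 and 2, 0.40 in replicates 3 and 4, and 0.13 in replicates 5 to 7), against 61.8% of all named genes above 0 and a median of 0.02. A limma p under 0.05 with a higher value was found for 5 of them (246 of 4836 named genes) and 4 were called higher, among them Drd1, Drd2 and Adora2a (11 of 4836). Without replicates 1 and 2 the rank product called 0 probe sets higher and 27 lower, where limma gave 696 at an unadjusted p under 0.05 in either direction. Over the 20 alternative settings, the median ran from 0.27 to 0.52.

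Drd1, the D1 receptor, measured 7.94, 8.43, 9.69, 9.34, 7.86, 8.07 and 6.94 in paired arrays and 5.78, 7.34, 9.07, 8.67, 4.14, 7.35 and 8.31 in unpaired arrays. Paired arrays were above unpaired ones throughout replicates 1 to 4, and in replicates 5 to 7 the groups overlapped. The difference was 1.09 (SE 0.53, exact permutation p = 0.075), and 0.63 without unpaired array 5. Its second probe set gave 0.81 (SE 0.43), with 0.01 in replicates 5 to 7 and 0.52 without unpaired array 1.

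Drd2, the D2 receptor, averaged 7.58 ± 1.10 in paired and 7.06 ± 1.18 in unpaired pups (0.52, SE 0.35, exact permutation p = 0.197), and remained a call for 4 of the 14 arrays left out, with 0.32 without unpaired array 5. Adora2a, an adenosine receptor of D2 neurons, averaged 7.08 ± 1.49 and 6.41 ± 1.86 (0.67, SE 0.54, exact permutation p = 0.283), and remained a call for 6 of the 14, with 0.31 without unpaired array 1 and 0.35 without unpaired array 5. Its second probe set gave 0.53 (SE 0.24). The opioid precursor Penk differed by 0.46 (SE 0.20, exact permutation p = 0.0472), Rgs9, a regulator of striatal G proteins, by 0.37 (SE 0.16, exact permutation p = 0.0444) and Pdyn, dim at 2.58 in paired and 2.34 in unpaired pups, by 0.25 (SE 0.079, exact permutation p = 0.025). Gng7 and Pde10a, signalling proteins of the same neurons that were picked after their values were seen, differed by 0.51 (SE 0.23) and 0.40 (SE 0.23).

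Striatal-type levels also varied between arrays of 1 group. The mean over the list ran from 7.34 to 8.73 in paired arrays and from 6.68 to 8.23 in unpaired arrays, and the lowest unpaired arrays were 1 and 5. In replicates 5 to 7 the list mean was 7.57, 7.74 and 7.34 in paired arrays and 6.68, 7.52 and 7.79 in unpaired arrays. The higher paired level in that set thus rested on unpaired array 5. Replicates 3 and 4 were the highest arrays in both groups. Whether the amount of striatum in the tissue pieces differed was not tested.

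**Figure D3:**
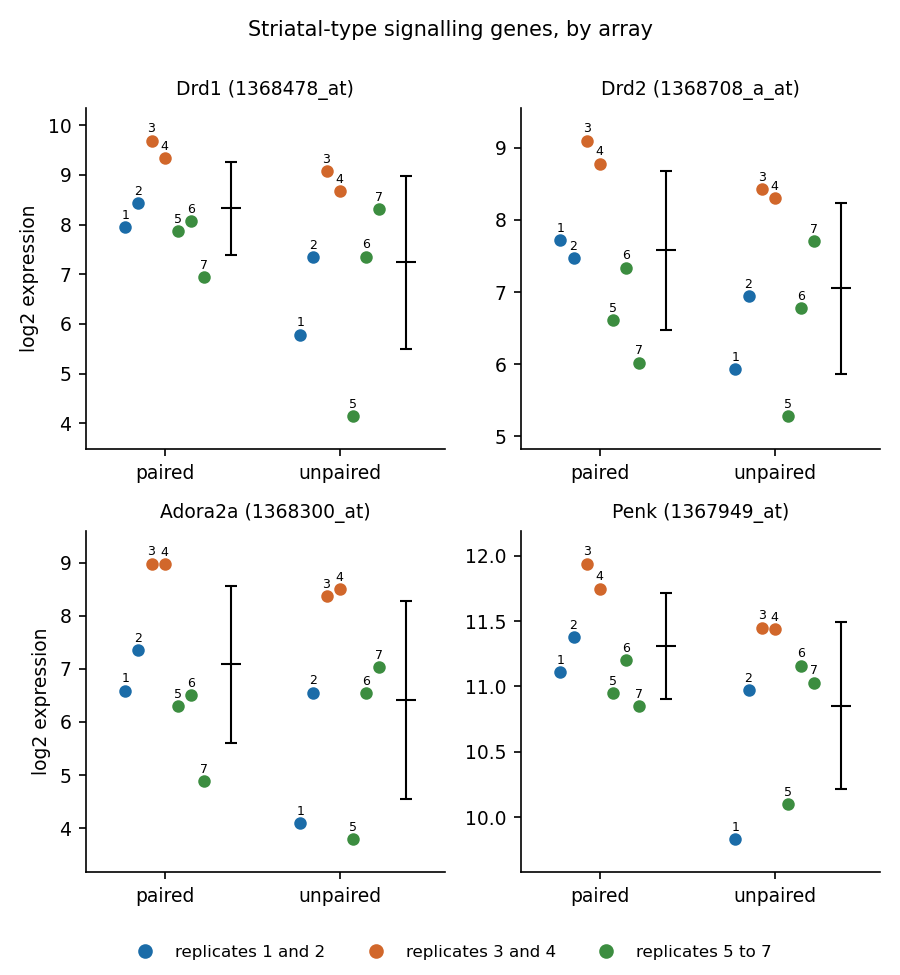
Log2 expression of Drd1, Drd2, Adora2a and Penk in each of the 7 paired and 7 unpaired arrays, coloured by array set and numbered by replicate, with the group mean ± SD in black. Replicates 1 to 4 are higher in paired arrays, and the lowest array is unpaired array 5 at Drd1, Drd2 and Adora2a and unpaired array 1 at Penk.

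Kcnh1, a potassium channel, read 5.36, 5.38, 4.56, 4.43, 3.54, 3.43 and 2.47 in paired arrays and 4.47, 4.84, 3.65, 3.84, 2.59, 2.65 and 2.58 in unpaired arrays, so paired arrays were higher throughout except for paired array 7. The difference was 0.65 (SE 0.14, exact permutation p = 0.0111), and without paired array 7 it was 0.79 and the only probe set to pass limma after adjustment (adjusted p = 0.0035). Rasgrp1, an activator of Ras, differed by 0.62 (SE 0.30). Scn4b, a sodium channel subunit, differed by 0.67 (SE 0.29), at dim means of 4.73 in paired and 4.07 in unpaired pups. The DNA repair protein Nbn differed by 0.51 (SE 0.26; 0.32 without unpaired array 5) and Folr1, a folate receptor of choroid plexus, by 0.45 (SE 0.42), with -0.45 in replicates 3 and 4. The Folr1 difference was 0.82 without unpaired array 3, and 0.25, 0.26 and 0.23 without unpaired arrays 1, 4 and 5. The called genes Dlx5, a forebrain interneuron transcription factor (0.60, SE 0.20, no overlap within any set), and Aldh5a1, a GABA-degrading enzyme (0.61, SE 0.23), had mean signals under 5 and were named after their values were seen.

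Vamp1 and Ugt8 were also called lower. Vamp1 measured 5.21 ± 0.83 in paired and 6.03 ± 0.70 in unpaired pups (SD, n = 7 each; -0.82, SE 0.27, exact permutation p = 0.0222), between -0.58 and -0.98 in the sets. Ugt8, which makes the galactolipids of myelin, measured 5.45 ± 1.05 and 6.15 ± 0.99 (-0.70, SE 0.24, exact permutation p = 0.0222). Both were called whichever array was left out.

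Bdnf, a neurotrophin induced by neuronal activity, measured 4.07, 3.53, 4.20, 4.29, 5.53, 6.43 and 6.06 in paired arrays and 4.50, 4.45, 5.13, 5.46, 6.31, 6.31 and 6.07 in unpaired arrays. The groups were apart in replicates 1 to 4 and overlapped in replicates 5 to 7 (-0.59, SE 0.17, exact permutation p = 0.0167; a call for 7 of the 14 arrays left out). A2m, the protease inhibitor alpha-2-macroglobulin, was lower without overlap within any set (-0.72, SE 0.22), most in replicates 3 and 4 (-1.52).

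Pmch, the precursor of melanin-concentrating hormone from the lateral hypothalamus, differed by -1.28 (SE 0.54), and this rested on replicates 3 and 4, where paired arrays read 4.34 and 6.20 and unpaired arrays 9.16 and 9.21. Without that set the difference was -0.23, and without paired array 3 it was -0.81. Slc6a9, a glycine transporter, Wdr7, Lasp1, Clstn2 and Shox2 were called lower with differences of -0.36 to -0.64 and overlap within at least 1 set. For Slc6a9 the lowest values were 3.51 in paired array 2 and 4.12 in paired array 5, and for Lasp1, an actin-binding protein, they were 3.64 and 4.56 in the same arrays. The Lasp1 difference was 0.10 without paired array 2, -0.06 without paired array 5, -0.88 without paired array 1, and -0.19 and -0.59 without unpaired arrays 1 and 2. That of Slc6a9 was -1.07, -0.24 and -0.35 without paired arrays 1, 2 and 5, and that of Wdr7 -0.77, -0.25 and -0.23. Clstn2 differed by -0.21 without unpaired array 5. Itga1, a collagen-binding integrin also called lower and named after its values were seen, differed by -0.38 (SE 0.30), with 0.74 in replicates 1 and 2, by -0.66 without paired array 1 and by 0.22 without replicates 5 to 7. A probe set without a symbol, singled out after its values were seen, was lower without overlap within any set (-1.40, SE 0.34). Its exact permutation p of 0.00278 is the smallest the design allows and follows from the lack of overlap.

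Small differences that separated the groups in all 3 sets were rarer than rank product calls. Among probe sets of mean log2 5 or more, 16 were higher (0.178%) and 12 lower (0.134%) in paired pups without overlap within any set, and over all levels 33 (0.208%) and 12 (0.0756%) were. The named ones among them were higher for Ggh, Siah2, Mx2, Man2a1, Eloc and LOC246042, and lower for Tenm2, Adcyap1, Sgk1, Nefl, Nme7, Stx4, A2m and Slc18a2. Having no overlap within any set makes the observed labels the most extreme ones. The smallest exact permutation p, 0.0028, therefore follows from how these genes were picked, here and below. After adjustment over all probe sets it was 0.48.

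Tenm2, teneurin 2, an adhesion protein of synapses, was the gene with the smallest SE relative to its difference among those named (limma adjusted p = 0.663). It read 9.24, 9.26, 10.11, 10.26, 9.55, 9.48 and 9.70 in paired arrays and 9.67, 9.49, 10.48, 10.55, 10.17, 9.98 and 9.81 in unpaired arrays. The differences were -0.33, -0.33 and -0.41 in the 3 sets (all sets -0.36, SE 0.061), and -0.32 to -0.39 with 1 array left out.

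Adcyap1, the neuropeptide PACAP, which acts on cyclic AMP in stress and fear circuits, read 7.69, 7.96, 7.06, 6.76, 7.30, 7.54 and 7.63 in paired arrays and 8.33, 8.28, 7.38, 7.62, 7.78, 7.81 and 7.75 in unpaired arrays (-0.43, SE 0.084, exact permutation p = 0.00278). Sgk1, a kinase induced by glucocorticoids, read 10.01, 10.00, 9.62, 9.72, 9.47, 9.36 and 9.62 in paired arrays and 10.20, 10.15, 9.77, 9.90, 9.91, 9.90 and 9.80 in unpaired arrays (-0.26, SE 0.055, exact permutation p = 0.00278). Both genes were lower in paired pups in every within-set comparison of 2 arrays.

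Nefl and Nefm, the light and medium neurofilament chains of axons, differed by -0.17 (SE 0.044) and -0.23 (SE 0.057), and the heavy chain Nefh by -0.30 (SE 0.14). Of 10 neurofilament and axon genes 7 were below 0, with a median of -0.06. Stx4, a membrane syntaxin, differed by -0.28 (SE 0.089) and Nme7, a centrosomal kinase, by -0.11 (SE 0.032).

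Siah2, a ubiquitin ligase, read 7.18, 7.41, 7.02, 6.83, 6.73, 6.87 and 6.80 in paired arrays and 6.92, 6.80, 6.70, 6.63, 6.34, 6.69 and 6.24 in unpaired arrays (0.36, SE 0.084, exact permutation p = 0.00278). Ggh, which trims folates, averaged 10.12 ± 0.15 and 9.89 ± 0.16 (0.23, SE 0.052, exact permutation p = 0.00278). Mx2, an interferon-induced GTPase, differed by 0.46 (SE 0.16), Man2a1, a glycan-processing enzyme of the Golgi, by 0.20 (SE 0.077) and Eloc, an elongin subunit, by 0.12 (SE 0.053).

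**Figure D4:**
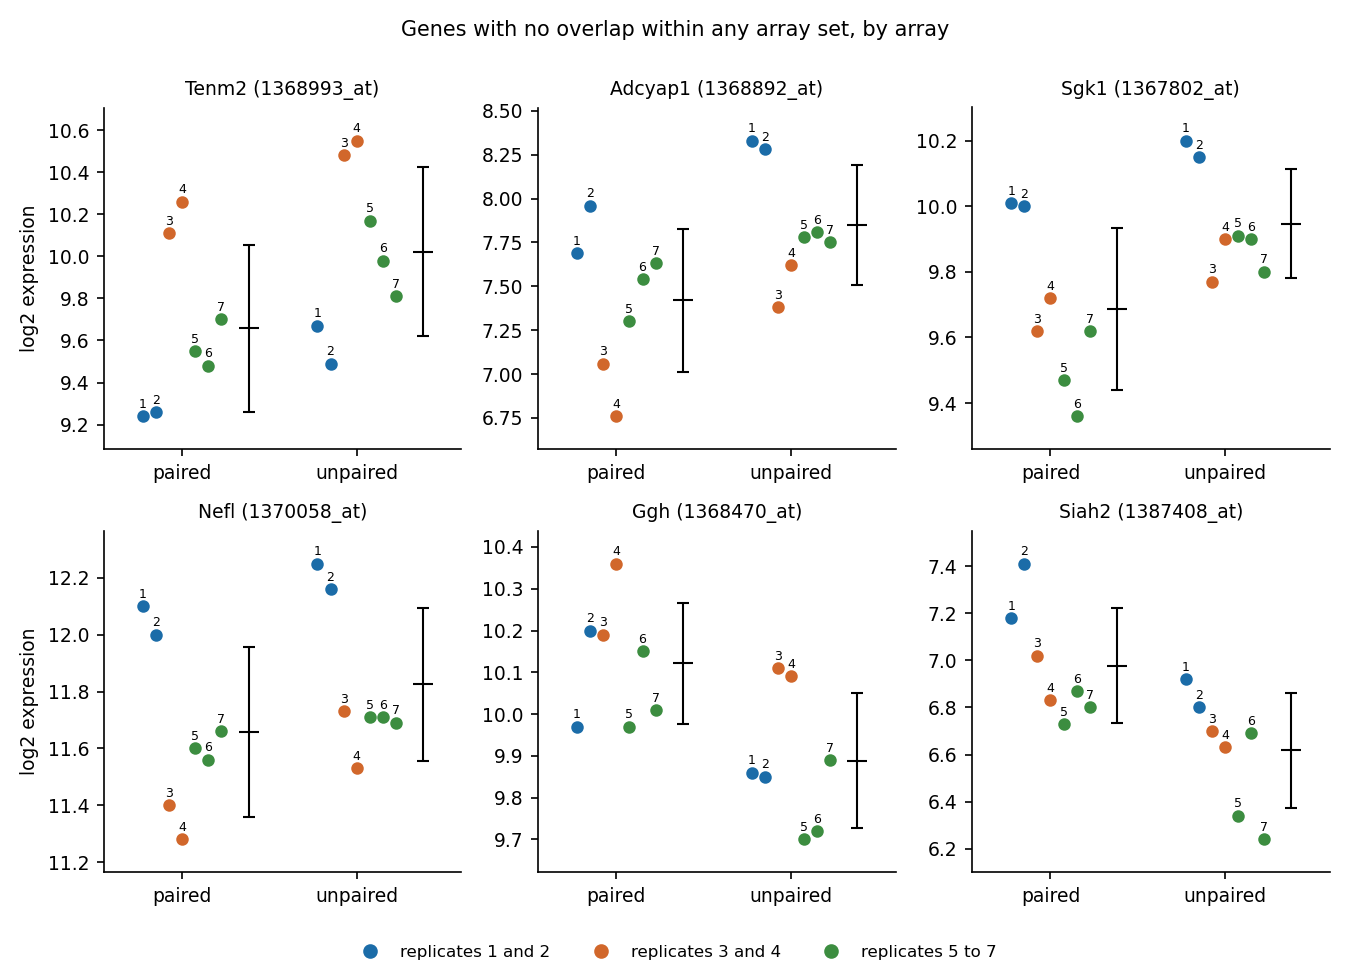
Log2 expression of Tenm2, Adcyap1, Sgk1, Nefl, Ggh and Siah2 in each of the 7 paired and 7 unpaired arrays, coloured by array set and numbered by replicate, with the group mean ± SD in black. Within each colour the paired and unpaired arrays do not overlap, which was a rule for naming genes, although levels differ between sets. Random labels would separate about as many probe sets.

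Further genes had small SEs relative to their differences and the same sign in all 3 sets. Higher were Acsl6, a brain acyl-CoA synthetase (0.23, SE 0.062), Pde7a, a cyclic AMP phosphodiesterase (0.43, SE 0.13), Camkv, a kinase-like synaptic protein (0.36, SE 0.11), Rgs2, a regulator of G proteins (0.45, SE 0.14) and Vldlr, a reelin receptor (0.21, SE 0.071). Lower were Nrn1, neuritin (-0.44, SE 0.12), and Fgf9, a growth factor (-0.43, SE 0.12).

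The lists of cell types and pathways were mostly centred near 0, and limma called none of their genes after adjustment. Oligodendrocyte genes were the list furthest below 0: 9 of 11 were lower, with a median of -0.13, though the median was 0.02 in replicates 3 and 4. Besides Ugt8 these included Mag, a myelin adhesion protein (-0.37, SE 0.18). Of 13 astrocyte genes 7 were lower (median -0.05), with Gfap, the astrocyte filament protein, at -0.17 (SE 0.065) and Aldoc at -0.09 (SE 0.040). Slc1a3, an astrocyte glutamate transporter, was higher in all 3 sets at 1 probe set (0.19, SE 0.062, exact permutation p = 0.0167) and differed by 0.02 (SE 0.055) at another.

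Immediate early genes, which neurons switch on within minutes of activity, were 12 higher and 7 lower of 19 (63.2% higher, against 61.8% of all named genes; median 0.02). Egr1 averaged 10.00 ± 0.11 in paired and 9.77 ± 0.18 in unpaired pups (0.22, SE 0.083, exact permutation p = 0.0222), and Arc, a synaptic immediate early gene, 5.75 ± 0.28 and 5.61 ± 0.12 (0.14, SE 0.11). Of 8 genes known to respond to glucocorticoids 4 were higher and 4 lower, and Tsc22d3, a classical target, differed by 0.04 (SE 0.091) while Sgk1 was lower. The stress axis list had 7 of 10 genes higher, with Hsd11b1, which regenerates corticosterone, at -0.28 (SE 0.12) and the glucocorticoid receptor Nr3c1 at 0.14 (SE 0.16).

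In the hypothalamus and thalamus list, Calb2 (calretinin) differed by -0.27 (SE 0.080) besides Pmch. Slc17a6, the glutamate transporter of thalamic and hypothalamic neurons, differed by -0.40 (SE 0.12, exact permutation p = 0.025), with -0.87 in replicates 3 and 4 and -0.05 in replicates 5 to 7. The list of choroid plexus genes had a median of 0.54 in replicates 1 and 2, -0.17 in replicates 3 and 4 and 0.06 in replicates 5 to 7. Ttr, transthyretin, a gene of that list named after its values were seen, differed by 0.24 (SE 0.31), with 1 low unpaired array at 11.17. Ionotropic glutamate receptor subunits were 10 higher and 5 lower of 15 (median 0.04), and ribosomal proteins 17 higher and 14 lower of 31 (median 0.01).

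**Figure D5:**
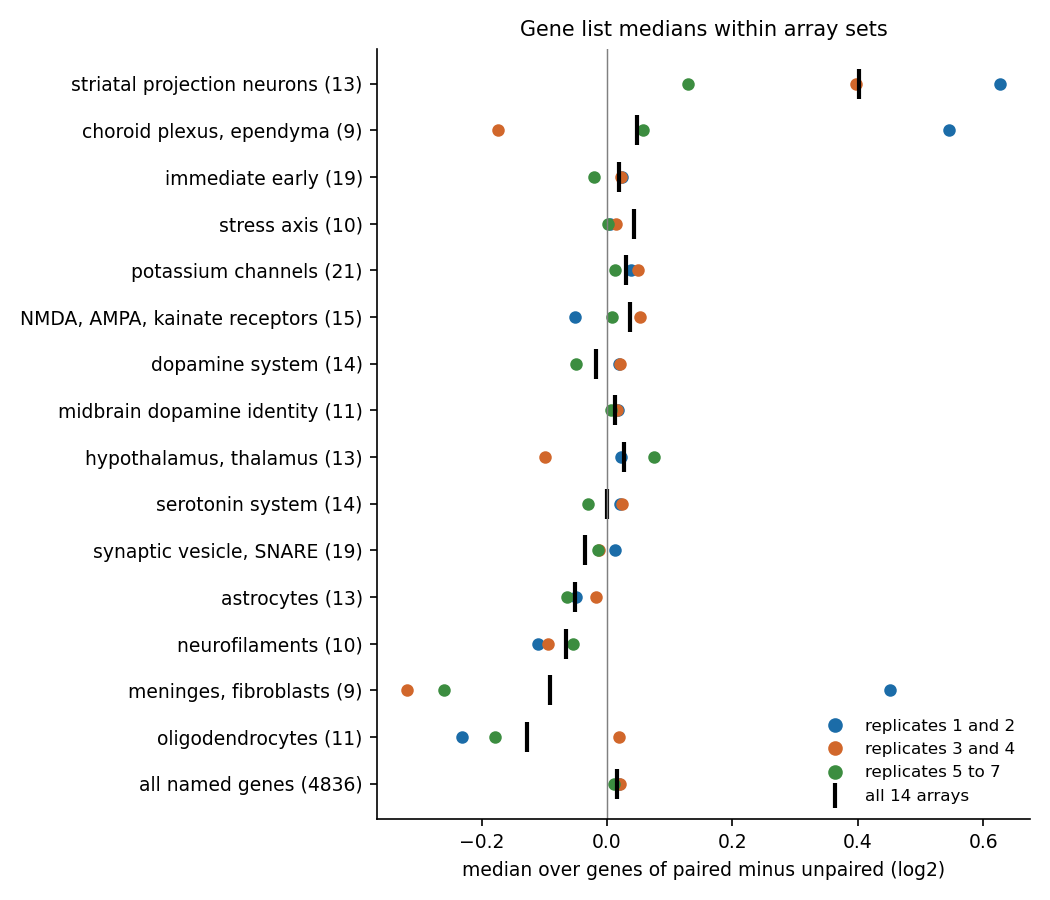
Median paired minus unpaired difference (log2) over the measured genes of 15 lists and of all 4836 named genes, in all 14 arrays (black bars) and in each array set (coloured points), with the number of genes in brackets. Striatal-type genes lie above 0 in all 3 sets, with unpaired array 5 the lowest array at this list in replicates 5 to 7. Several lists change sign between sets, among them the dopamine, choroid plexus and meninges lists.

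Across the whole table, the effect of pairing in saline pups was also tested against that in the other conditions. These contrasts shared 1 estimate of spread, although corticosterone arrays had lower medians and upper quartiles than saline arrays. Of 15866 probe sets 1 (0.0063%) passed limma for saline minus corticosterone, which carries no symbol, at -1.08 (SE 0.16, adjusted p = 0.013), and with the replicate number as a block 0 passed (lowest adjusted p 0.0552). At that probe set the effect was -0.16 in saline pups (SE 0.070, from the fit of the 14 saline arrays alone). In corticosterone pups it was 0.92 (SE 0.13, from the fit of all 28 arrays). For saline minus 12-day pups 0 probe sets passed limma, with 598 (3.77%) at an unadjusted p under 0.05, and 1394 (8.79%) for saline minus corticosterone. Tenm2 differed by -0.63 (SE 0.13, adjusted p = 0.553) between saline and corticosterone pups, its effect in corticosterone pups being 0.26 (SE 0.11).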

How the data were processed

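Expression in amygdala RNA of paired and unpaired 8-day saline pups was measured on Affymetrix rat arrays, 1 sample per array. The deposited values are log2 expression per probe set, made with RMA and GCRMA as listed, with no version or role, per the submitters' processing notes. The authors' deposited table for saline pups gives a fold ratio per probe set, used here only to check the scale and direction of the log2 values (largest gap 0.000125). Which arrays were normalized together is not given in the sources used here, so array sets were kept apart. Arrays have no read depth, and the number of arrays limits the precision.

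Of 15866 probe sets on both designs, 6027 had 1 gene symbol (4836 genes), matched through accessions and symbols to RefSeq (GRCr8). The main test was limma 3.58.1 (R 4.3.3) with array set as a block and a trended variance, with Benjamini-Hochberg adjustment. Rank products were computed over 17 within-set pairs with 100 shuffles. Tested on simulated data, the rank product made more calls than limma among probe sets with no simulated difference. Those calls also outnumbered the 75 that the rank product made in the real arrays. Its pfp may thus understate the share of false calls. Exact permutation tests, two-sided, used 720 within-set relabellings. Contrasts with other conditions used all 28 arrays. Python 3.11.15, numpy 2.4.6, pandas 2.3.3, scipy 1.17.1 and matplotlib 3.10.9 were used.

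Deviations of same-numbered paired and unpaired arrays from their group means correlated at 0.537 to 0.860, and the replicate block was therefore run as an alternative. Same-numbered arrays share an array set, and with set means removed the correlations were -0.14 to 0.49, 4 of 7 below 0, so pairing within a set is not shown.

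Genes named were, at a mean log2 of 5 or more, up to 15 per direction by rank product, 12 per direction by limma p with 1 sign in all sets, and up to 10 per direction without overlap within sets, and at any level the dopamine list and up to 4 genes of each other list by limma p. Exceptions are marked where they occur. Some genes the rule took are not reported here. The members, lists and tests were chosen with earlier results of these data known. Alternatives were other blocks, scalings, level filters, array sets and arrays left out.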

Additional observations from a re-analysis of the deposited data

Results flagged for a closer look

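Several values lay apart from the other 6 arrays of their group, past Dixon's critical gap for 7 values. Chance gives such a gap in about 1 of 20 groups, and the search covered both groups at each of 78 probe sets. Several flags were therefore to be expected from chance alone. The arrays of a group also span the array sets, which differ in level. Slc6a3 was 5.27 in paired array 1, and its second probe set was 3.05 in unpaired array 5. Slc18a2 was 3.0 in paired array 2, where the others lay between 4.91 and 5.01. Clstn2, a calsyntenin of synapses, was 6.0 in paired array 1. Crh was 5.61 in paired array 2. Ttr was 11.17 in unpaired array 4.

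The effect of pairing differed between saline and corticosterone pups at 1 probe set without a symbol, by -1.08 (limma on all 28 arrays, SE 0.16, adjusted p = 0.013). Its mean was 3.86 in paired and 4.02 in unpaired saline pups, and 4.20 in paired and 3.27 in unpaired corticosterone pups. With the replicate number as a block it did not pass (lowest adjusted p 0.0552). Corticosterone arrays had lower medians than saline arrays, so the compared effects may not be on the same scale.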

How the results depend on the processing

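The count of rank product calls, 75, was the less stable result. It was 28 over all pairs of arrays regardless of set (27 shared with the 75), 43 among probe sets of mean log2 5 or more (all 43 shared), 27 without replicates 1 and 2 (0 higher, 27 lower), and 32 without replicates 3 and 4 (5 higher, 27 lower). With 1 array left out it ran from 42 (without unpaired array 4) to 117 (without unpaired array 7, 62 shared), and other arrays that moved it by over 1.5 times were paired 2 (47), paired 3 (49), unpaired 1 (44) and unpaired 3 (46). With the replicate block, that is over same-numbered pairs, it was 109. The count by limma was 0 under each alternative except without paired array 7, where it was 1 (Kcnh1), so its range with 1 array left out was 0 to 1. For saline minus corticosterone the 1 call became 0 with the replicate block. The count at an unadjusted limma p under 0.05, 1088 and 75.5% higher, was 2137 with the replicate block, 2914 without unpaired array 5, 1852 without paired array 7, 2641 without replicates 5 to 7, 656 with a random block, 72 with no block and 527 after centring on array medians (36.2% higher). Of 1638 gene differences over 78 probe sets, 1628 moved by less than 1 within-set SD between arrays, 8 moved further and 2 of called probe sets turned sign. That limit is wide: the Drd1 difference of 1.09 counted as unmoved at 0.63 without unpaired array 5. The 2 that turned sign were Lasp1, to 0.10 without paired array 2 (from -0.88 to 0.10 with 1 array left out), and Itga1, to 0.22 without replicates 5 to 7. The uncalled second probe sets of Th and Slc6a3 also turned sign without replicates 5 to 7, to 0.04 and 0.02. The causes were not tested. Dim probe sets, under a mean log2 of 5, limit what can be read of genes such as Slc6a3, Pdyn, Aldh1a1, Scn4b and Kcnh1.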

Other observations

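One probe set without a gene symbol, singled out after its values were seen, was between 2.39 and 2.62 in 8 arrays and between 9.72 and 12.17 in the other 6. It read 2.45, 2.51, 2.62, 12.17, 2.55, 2.53 and 12.14 in paired arrays 1 to 7, and 2.42, 9.72, 12.09, 2.55, 11.72, 12.09 and 2.39 in unpaired arrays 1 to 7. It was called lower by the rank product (-2.29, SE 2.40), with an exact permutation p of 0.617.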
